A study of Mus musculus with 4 samples.

Results

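The serotonin receptor genes were examined in messenger RNA sequenced from the medial prefrontal cortex (mPFC) of C57BL/6 mice (C57BL/6J by the study's methods), in a control group (2 libraries) and in a group exposed to chronic unpredictable mild stress (CUMS, 2 libraries). The 10 genes Htr1a, Htr1b, Htr1f, Htr2a, Htr2c, Htr3a, Htr4, Htr5a, Htr6 and Htr7 were chosen by their symbols from the 17778 genes of the table, and all 10 were found. All mice were males that were juvenile when the work began. Tissue was taken later, after adaptation, weeks of stress or control housing, and behavior tests. Stressors ranged from isolation, restraint and uncomfortable cages to noise, flashing light and shifted light cycles. Controls were spared these, and only those stressed mice that had changed in sucrose preference, Y-maze and forced swimming together were used, so that the CUMS group stands for the vulnerable part of the stressed mice. The authors averaged the libraries of each group before deposit. Every value below is therefore 1 group mean in RPKM (reads scaled to the length of the gene and the size of the library), differences cannot be compared with the variation among animals, and no p-value is given. Whether each library came from 1 mouse is not given in the sources used here.

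Serotonin reaches the prefrontal cortex through axons of neurons whose cell bodies lie in the raphe nuclei of the brainstem, so that cortical tissue holds the receptors but hardly the messenger RNA that makes the transmitter. Most of the receptors signal through G proteins. The Htr1 group and Htr5a couple to Gi/Go proteins and lower cyclic AMP, the Htr2 group couples to Gq and phospholipase C, and Htr4, Htr6 and Htr7 couple to Gs and raise cyclic AMP. Htr3a is the exception, since it encodes the subunit of a cation channel opened directly by serotonin.

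The tissue carried the markers of a cortex rich in excitatory neurons. The vesicular glutamate transporter gene Slc17a7 was 635.39 RPKM in control mice and 791.26 RPKM in CUMS mice. The makers of serotonin were close to absent. Tph2, the rate-limiting enzyme of serotonin synthesis in the brain, was 0.05 RPKM in control mice and 0.325 RPKM in CUMS mice, and the serotonin transporter gene Slc6a4 was 0.135 and 0.065 RPKM. The median over all genes was 5.53 RPKM in control mice and 5.34 RPKM in CUMS mice, and the number of fragments behind the values was estimated from the spacing of low values as 7473842 per control library and 7485030 per CUMS library. The 95% intervals below were computed from these estimates. They cover counting error only and say nothing of the differences between mice.

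Htr2c is shown first by its sequence, because it was the most abundant member and because its messenger RNA is known to be altered after transcription. Enzymes of the Adar family change 5 adenosines of 1 coding stretch to inosine, which lowers the coupling of the receptor to its G protein. The stretch has 24 bases in exon 5 of 6 of the transcript Htr2c-201 (GRCm38, chrX:147169683-147169706, plus strand), and the capitals mark the adenosines that are edited. The letters are those of the GENCODE reference transcript, before editing.
Htr2c: gcaAtAcgtAAtcctAttgagcat
The RPKM of Htr2c counts edited and unedited forms together. The editing enzyme genes Adar and Adarb1 were 51.86 and 41.405 RPKM in control and 49.98 and 37.18 RPKM in CUMS, so that the log2 ratio of Adarb1 had a counting interval of -0.22 to -0.09 and that of Adar an interval of -0.11 to 0.01.

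In control mPFC the receptors fell into 3 ranges of level per length. Htr2c was the highest at 15.125 RPKM (interval 14.2 to 16.1), and Htr1a followed at 7.995 RPKM (7.33 to 8.71). A middle range held Htr3a (4.37), Htr5a (4.3), Htr1b (4.26), Htr6 (3.685), Htr7 (3.59) and Htr2a (3.355 RPKM). Htr4 (0.775 RPKM) and Htr1f (0.645 RPKM) were the lowest. The steps from Htr2c to Htr1a, from Htr1a to Htr3a and from Htr2a to Htr4 exceeded counting error, with log2 differences in level of 0.92, 0.87 and 2.11. Neighbours within the middle range, and Htr4 against Htr1f, did not differ beyond it. Only Htr2c and Htr1a lay above the median of all genes in control, at the 71.3rd and the 57.5th percentile of level, and the other 8 members lay between the 23.4th and the 45.8th.

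**Figure D1:**
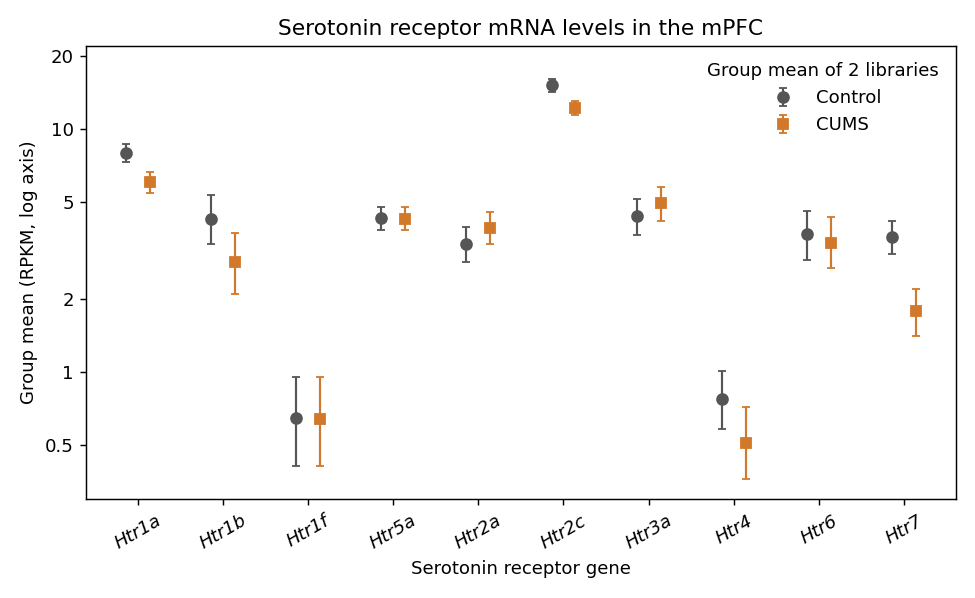
Group means of the 10 serotonin receptor genes in RPKM on a log axis, with control as grey circles and CUMS as orange squares (each the authors' mean of 2 libraries) and bars for the 95% counting interval. Htr2c and Htr1a stand above the other genes in both groups, and the bars of the groups are apart for Htr1a, Htr2c and Htr7.

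The order of the levels was not the same in CUMS. Htr2c (12.22 RPKM) and Htr1a (6.06 RPKM) stayed highest, but Htr7 (1.775 RPKM) left the middle range and lay below Htr1b (2.84 RPKM) by a log2 difference in level of 0.68, which exceeded counting error. Htr2a moved from the eighth to the fifth place, where its neighbours Htr5a and Htr6 did not differ from it beyond counting error.

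The comparison of depression-like mice with controls asked which receptor messages differed between the groups. At the estimated depth, Htr7, Htr1b, Htr1a and Htr2c were lower in CUMS beyond counting error, and none of the 10 genes was higher beyond it. These calls depend on the estimated depth, and the study gives larger read numbers. At 0.5 times the estimate the interval of Htr1b held 0. At 2 times the estimate the intervals of Htr4 (lower) and Htr2a (higher) left out 0 as well. Greater depths were not tried. Means were lower in 8 members and higher in 2, against 53.2% of genes with a lower mean among the 14257 genes that reached 0.5 RPKM in control or in CUMS, as all 10 members did. The 8 include Htr1f (0.645 and 0.64 RPKM) and Htr5a (4.3 and 4.285 RPKM), whose estimated fragments were equal in the groups. No direction is read from these genes, so the count of 8 overstates the lower side. The median log2 ratio (CUMS over control) of the members was -0.21, and that of the 14257 genes was -0.02. The counting interval lay below 0 in 4 of 10 members, where 16.8% of the 14257 genes had such an interval, and above 0 in 0 of 10, against 12.6%. Among 8135 genes whose mean lay in the same range as the members (0.643 to 13.7 RPKM), these shares were 15.2% and 7.47%, 55.5% of means were lower, and the median log2 ratio was -0.03. Whether fewer cells with a receptor or less of its RNA per cell lies behind a lower mean cannot be told apart in bulk tissue.

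By size, Htr7 and Htr4 were more than 1.5-fold lower in CUMS (2 of 10 members, against 4.41% of the 14257 genes and 5.25% of the 8135 genes), and 0 of 10 were more than 1.5-fold higher (against 2.77% and 2.96%). The fold of 1.5 is the threshold of the study. Htr1b lay exactly on it and was not counted.

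**Figure D2:**
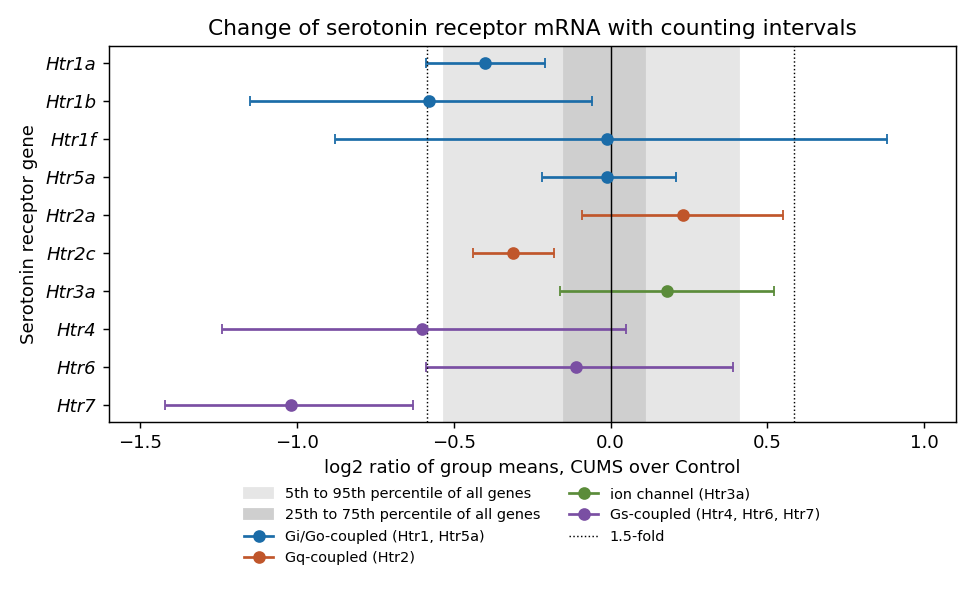
Log2 ratio of the group means, CUMS over control, for each serotonin receptor gene, colored by the coupling of the receptor, with bars for the 95% counting interval. Grey bands hold the middle of all genes of at least 0.5 RPKM (-0.15 to 0.11 and -0.53 to 0.41), dotted lines mark 1.5-fold, and Htr7 at -1.02 lies farthest from 0.

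Among the Gs-coupled receptors, Htr7 showed the largest difference of all members. Htr7 (gene 15566, chromosome 19, 35958415 to 36058133 on GRCm38) was 3.59 RPKM in control (interval 3.06 to 4.18) and 1.775 RPKM in CUMS (1.41 to 2.2), or an estimated 166 and 82 fragments over the 2 libraries of each group. The intervals of the groups did not overlap, and the log2 ratio was -1.02 (-1.42 to -0.63), at the 1.43rd percentile of the 14257 genes. Htr7 is known for its high expression in thalamus and hypothalamus and for a part in circadian timing, and is present in cortex at a lower level.

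Htr6 and Htr4 share the coupling of Htr7. Htr6 (gene 15565, chromosome 4, 139059706 to 139075570), a receptor of striatum and cortex, was 3.685 RPKM in control mice and 3.41 RPKM in CUMS mice, with a log2 ratio of -0.11 (-0.59 to 0.39). Htr6 thus did not differ beyond counting error, and its interval was apart from that of Htr7. Per length, Htr7 was 0.974 times as abundant as Htr6 in control and 0.521 times in CUMS. Htr4 (gene 15562, chromosome 18, 62323546 to 62503027) was 0.775 RPKM in control mice and 0.51 RPKM in CUMS mice, 54 and 36 fragments. Its log2 ratio of -0.60 (-1.24 to 0.05) was past 1.5-fold, yet the low number of fragments left equal expression within the interval.

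Among the Gi/Go-coupled receptors, Htr1a and Htr1b had lower means in CUMS and Htr1f and Htr5a had nearly equal means. Htr1a (gene 15550, chromosome 13, 105443693 to 105448133) serves as the autoreceptor on the cell bodies of raphe neurons and as an inhibitory receptor on cortical neurons. It was 7.995 RPKM in control mice and 6.06 RPKM in CUMS mice (531 and 403 fragments), and its log2 ratio was -0.40 (-0.59 to -0.21). The intervals of the group means, 7.33 to 8.71 and 5.48 to 6.68 RPKM, did not overlap.

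Htr1b (gene 15551, chromosome 9, 81628291 to 81633832), which sits on axon terminals and restrains transmitter release, was 4.26 RPKM in control mice and 2.84 RPKM in CUMS mice. Its log2 ratio of -0.58 (-1.15 to -0.06) rested on 74 and 49 fragments, and the intervals of its group means (3.35 to 5.35 and 2.09 to 3.73 RPKM) overlapped. The span of Htr1b overlaps that of the long noncoding RNA gene D430036J16Rik, which was in the table as well with 1.5 and 1.94 RPKM. The use of strand is not given in the sources used here, so that reads of these genes might not be separated. Htr3a and Htr4 overlap noncoding genes too, and no member overlaps another protein-coding gene.

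Htr1f and Htr5a had the smallest differences of the family. Htr1f (gene 15557, chromosome 16, 64924729 to 65105784), a relative of Htr1b and a target of migraine drugs, was 0.645 RPKM in control mice and 0.64 RPKM in CUMS mice. With 24 fragments in each group its log2 ratio of -0.01 had an interval of -0.88 to 0.88, which leaves room for sizable differences. Htr5a (gene 15563, chromosome 5, 27841716 to 27855086), a less studied inhibitory receptor, was 4.3 RPKM in control mice and 4.285 RPKM in CUMS mice. Its log2 ratio of -0.01 had a much narrower interval, -0.22 to 0.21, over 358 fragments in each group.

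The Gq-coupled receptors went in opposite directions in their means. Htr2c (gene 15560, chromosome X, 146962464 to 147197277) was 15.125 RPKM in control mice and 12.22 RPKM in CUMS mice (1077 and 872 fragments), a log2 ratio of -0.31 (-0.44 to -0.18). Htr2a (gene 15558, chromosome 14, 74640874 to 74706859), the main excitatory serotonin receptor of cortical pyramidal neurons and the target of the classical hallucinogens, was 3.355 RPKM in control mice and 3.93 RPKM in CUMS mice. The log2 ratio of Htr2a was 0.23 (-0.09 to 0.55), which held 0 at the estimated depth and left it out at 2 times that depth. The intervals of Htr2c and Htr2a did not overlap each other. Per length, Htr2c was 4.51 times as abundant as Htr2a in control and 3.11 times in CUMS.

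The ratio of the bulk means of the inhibitory Htr1a and the excitatory Htr2a was likewise lower in CUMS. Both receptors are found together in many pyramidal neurons, but bulk values do not show in which cells a mean differed. The level of Htr1a was 2.38 times that of Htr2a in control and 1.54 times in CUMS, and the intervals of their log2 ratios were apart. Htr1a against Htr1b stayed closer. Htr1b was 0.533 times Htr1a in control and 0.469 times in CUMS, and their intervals overlapped.

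Htr3a (gene 15561, chromosome 9, 48899213 to 48911152), which marks a class of cortical interneurons that arise in the caudal ganglionic eminence, was 4.37 RPKM in control mice and 4.95 RPKM in CUMS mice. Its log2 ratio was 0.18 (-0.16 to 0.52) over 135 and 153 fragments, so that the higher mean did not exceed counting error. In the list of 10 genes for this interneuron class the median log2 ratio was 0.04. Within it the peptide genes Vip, Cck and Npy and the membrane protein gene Lamp5 had intervals above 0, with log2 ratios of 0.51, 0.42, 0.27 and 0.33. Lamp5 is also counted in the list of upper-layer excitatory neurons, and in which cells these levels differed was not tested. An interval below 0 was found in 0 of the 10. Means were lower in 4 of the 10, Prox1 (-0.44), Sncg (-0.36), Adarb2 (-0.34) and Reln (-0.10). Of the 14257 genes, 12.6% had an interval above 0 and 16.8% below it.

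**Figure D3:**
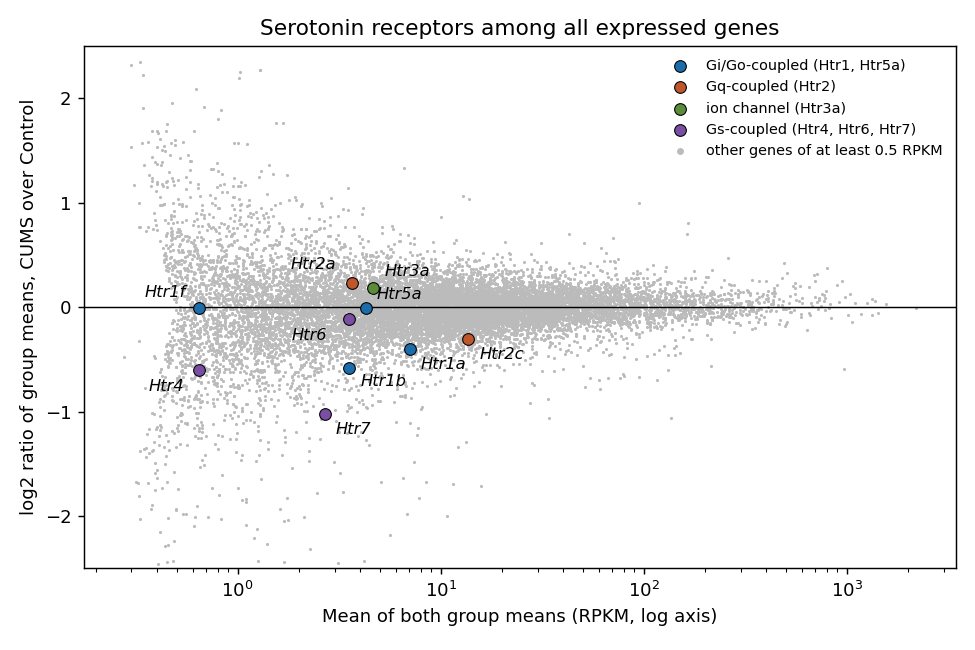
Each point is a gene that reached 0.5 RPKM in control or in CUMS, placed by the mean of both group means (RPKM, log axis) and its log2 ratio, CUMS over control, with the serotonin receptors enlarged and colored by coupling. Htr7 lies lowest of the receptors at -1.02, Htr1a and Htr2c lie farthest to the right, and 17 genes beyond 2.5 on either side are outside the axis.

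Summed over the 10 genes, receptor message was 48.1 RPKM in control mice and 40.62 RPKM in CUMS mice, a log2 ratio of -0.24. The fall came to 7.48 RPKM. Htr2c, Htr1a, Htr7 and Htr1b together fell by 8.07 RPKM, and the higher means of Htr2a and Htr3a added 1.16 RPKM. By coupling, the Htr1 genes summed to 12.9 and 9.54 RPKM (log2 ratio -0.44), or 17.2 and 13.82 RPKM (-0.32) with Htr5a, the Gs-coupled genes to 8.05 and 5.695 RPKM (-0.50) and the Htr2 genes to 18.48 and 16.15 RPKM (-0.19), while the channel gene Htr3a had a higher mean (0.18). Without Htr2c, the largest term, the log2 ratio of the sum was -0.22, and without Htr7 it was -0.20.

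A few serotonin receptor genes outside the 10 were in the table as well. Htr1d, a close relative of Htr1b, was 0.98 RPKM in control mice and 0.995 RPKM in CUMS mice (log2 ratio 0.02, interval -0.65 to 0.64). Htr5b, which in mice is best known from the habenula, was 1.025 and 0.73 RPKM (-0.49, -1.36 to 0.34). Htr2b rested on 2 fragments in control and was listed at 0.01 RPKM in CUMS, too few for a fold. Htr3b was looked for by its symbol and was not found.

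The lengths that the authors used for RPKM bear on levels between genes but cancel in the ratio of the groups for a single gene. They do not cancel in the ratios of sums over genes, where each gene weighs by its RPKM. For 7 of the 10 members the deposited length lay within 97.3% to 104% of the longest coding transcript in GENCODE M21. The length of Htr1b, 1161 bases, equalled its coding sequence and was 24.6% of its longest transcript, so that its RPKM is a density over coding bases alone. Htr2a was counted over 2971 bases, 53% of its longest transcript, and Htr6 over 1362 bases, 58.2%. Htr2c also hosts other RNAs. According to RefSeq, 7 microRNA genes lie inside its span, among them Mir764, Mir1912, Mir1264, Mir1298 and Mir448. MicroRNA reads were not analysed here.

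Other genes of serotonin signaling had log2 ratios on both sides of 0. Of 48 such genes, 45 reached 0.5 RPKM, and 0 of these 45 differed by more than 1.5-fold in either direction, against 4.41% of the 14257 genes on the lower and 2.77% on the higher side. Intervals lay below 0 in 10 of the 48 genes and above 0 in 11, where the 14257 genes had 16.8% and 12.6%, and their median log2 ratio was 0.00. The 45 genes ranged from -0.54 for the vesicular monoamine transporter Slc18a2 (interval -1.11 to 0.00) to 0.38 for Rgs4 (0.33 to 0.44), a protein that shortens signals of Gi/Go and Gq.

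Enzymes and transporters that act on serotonin came first in this list. Ddc, which carries out the last step of serotonin and dopamine synthesis, was 4.8 RPKM in control mice and 3.655 RPKM in CUMS mice, with a log2 interval of -0.76 to -0.01. The degrading enzymes Maoa (7.925 and 7.79 RPKM) and Maob (10.86 and 11.495 RPKM) and the low-affinity transporters Slc22a3 (1.305 RPKM in both groups) and Slc29a4 (5.91 and 6.065 RPKM) did not differ beyond counting error. Tph2 was past 1.5-fold on the counts of 2 and 13 fragments, a ratio of the group means as deposited of 6.50 with a log2 interval of 0.56 to 5.89. With the control value raised to the floor of 3 fragments its log2 ratio was 2.09. Slc6a4 (6 and 3 fragments) and Tph1 (3 and 8 fragments) were past 1.5-fold as well, with intervals that held 0.

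The transducers behind the receptors had log2 ratios on both sides of 0. The G protein alpha subunit genes ranged from -0.08 for Gnai2 to 0.17 for Gnai1 with a median of 0.04, and 4 of 9 had an interval above 0 and 1 below it. Among 15 effectors the median was 0.05, with intervals above 0 in 5, among them Kcnj9 (0.18), Itpr1 (0.16) and Adcy1 (0.12). Intervals lay below 0 in 4, Adcy8 (-0.35), Plcb4 (-0.35), Adcy5 (-0.28) and Adcy3 (-0.18), where Htr2c had -0.31. The lowest was Adcy8, an adenylyl cyclase, which was 6.18 RPKM in control mice and 4.84 RPKM in CUMS mice (interval -0.55 to -0.15). The phospholipase gene Plcb4 and the receptor kinase gene Grk5, a regulator, had intervals below 0, -0.61 to -0.09 and -0.58 to -0.07. S100a10, whose protein p11 binds the Htr1b receptor, was 30.235 and 26.535 RPKM with an interval of -0.44 to 0.06. Factors known to act on the Htr1a promoter ranged from -0.17 for Cc2d1a to 0.01 for Deaf1.

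The adrenergic receptors, another family of amine receptors, gave a measure of comparison. Over 9 genes their sum was 61.68 RPKM in control mice and 60.59 RPKM in CUMS mice. The 8 of them that reached 0.5 RPKM ranged from -0.25 for Adra2a to 0.13 for Adrb1 with a median of -0.05, beside -0.21 for the serotonin receptors. The difference between the families was not tested, since members are not replicates of a condition.

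**Figure D4:**
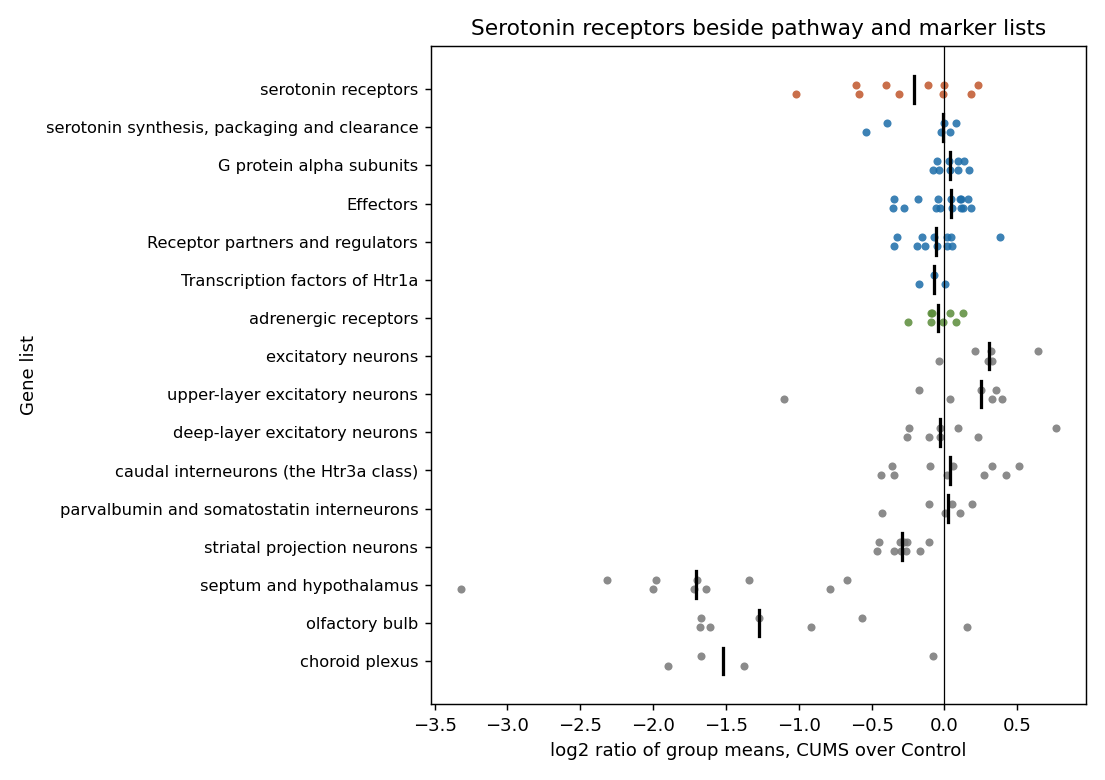
Log2 ratio of the group means, CUMS over control, for each gene of at least 0.5 RPKM in the serotonin receptor list (orange), lists of serotonin signaling (blue), adrenergic receptors (green) and markers of cell types and regions (grey), with a black bar at the median. The serotonin receptors spread from -1.02 to 0.23, while the medians of the septum and hypothalamus, olfactory bulb and choroid plexus lists lie at -1.71, -1.27 and -1.52. The choroid plexus median rests on 4 genes.

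Many markers of neighbouring brain regions and of other cell types also differed between the groups, in both directions, and their part in the receptor values was not tested. For the genes of septum and hypothalamus, 10 of 10 had an interval below 0, and their summed level was 224.3 RPKM in control mice and 107.4 RPKM in CUMS mice. Of these 10 genes, 8 are among those listed as changed in the original work on these samples, so that the list is not independent evidence. The remaining genes Irs4 and Trpc4 had log2 ratios of -3.32 and -0.79. All gene lists here were chosen with earlier results of these data known, so genes outside the original work are not independent evidence either. Striatal projection neuron genes had intervals below 0 in 8 of 10, a median of -0.29 and sums of 562.2 and 463.3 RPKM. Olfactory bulb genes had intervals below 0 in 6 of 7, of which 3 are listed there as well, with sums of 116.1 and 82.72 RPKM. The other gene, Synpr, had an interval above 0 (0.06 to 0.25). Without the 3 listed genes the sums were 59.31 and 57.11 RPKM, of which Synpr made up 43.72 and 48.595, and the median log2 ratio was -0.92. Of the 14257 genes, 16.8% had an interval below 0 and 12.6% above it. Genes with many fragments have narrow intervals, so such counts in any list also depend on level.

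Htr2c is known to be abundant in choroid plexus. The defining gene of that tissue, Ttr, rested on 1 fragment in control and 0 in CUMS, and the 7 listed genes found summed to 6.135 and 3.32 RPKM. Clic6 (3.225 and 1.245 RPKM), Aqp1 and Otx2 had intervals below 0, whereas Kcnj13 had 0 and 8 fragments and an interval above 0. Kl (0.93 and 0.88 RPKM) and Folr1 (0.24 and 0.29 RPKM) had intervals that held 0. The median log2 ratio was -1.52 over the 4 genes that reached 0.5 RPKM, and -0.73 when lower genes with a ratio were included.

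Lists of cortical neurons held genes that were higher and genes that were lower. General excitatory neuron genes had intervals above 0 in 5 of 6, with sums of 1539 and 1845 RPKM and a median log2 ratio of 0.31. Upper-layer genes had a median of 0.25, with intervals above 0 in 4 of 7 and below 0 for Mdga1 (-1.10) and Cux1 (-0.17). Deep-layer genes had a median of -0.03, with intervals above 0 in 3 of 8, among them Ntsr1 (0.77), and below 0 in 1. The median of the parvalbumin and somatostatin interneuron list was 0.03, and Lhx6 (-0.43) was its only gene with an interval that left out 0.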

How the data were processed

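Messenger RNA was selected with oligo(dT), and both ends of the fragments were read on a HiSeq instrument. The authors trimmed reads with SolexaQA, aligned them to mm10 with TopHat 1.0.12 and Bowtie 0.11.3, and counted uniquely aligned reads per gene. The annotation and the use of strand are not given in the sources used here. The deposited values were RPKM, which the authors averaged over the 2 libraries of each group, with 0.01 in place of 0 (590 control and 619 CUMS values). The deposited log2 ratios and the NOISeq probability, a score, are the authors' own comparison and were not used.

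The 10 members and all gene lists were chosen with earlier results of these data known. Named were all members, other serotonin receptors, and genes of the fixed pathway list past 1.5-fold, of synthesis and clearance, or at its extremes; others (marker genes, D430036J16Rik and pathway genes such as Adar, Adarb1, Adcy1, Itpr1, Kcnj9, Plcb4, Grk5 and S100a10) were named after their values were seen. Ratios were CUMS over control mean, with no pseudocount and values at or under 3 fragments raised to that floor. The worth of 1 fragment was the step (20 to 200 RPKM x bases) that put most products of mean and length within 0.15 of a whole number of steps, among genes under 1000 bases and products under 350. It was 66.9 in control and 66.8 in CUMS, with 87.9% and 87.5% of values near a step (29.4% and 31.3% with shuffled lengths), if both libraries of a group had equal depth. The study gives larger read numbers, and the difference was not resolved. Ratios got exact Clopper-Pearson and levels exact Poisson 95% intervals, which cover counting error only. The interval script was tested on simulated data. Python 3.11.15 with scipy 1.17.1 was used. Coordinates are RefSeq gene spans on GRCm38.p6. A marker list of GABA neurons is not reported here.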

Additional observations from a re-analysis of the deposited data

How the results depend on the processing

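No paired analysis was possible because single libraries have no values here, and limma and fits without 1 library were not run for the same reason. Over 4 alternatives (CUMS rescaled to a median log2 ratio of 0 or to an equal total, and a pseudocount of 0.1 or 0.5 RPKM), all 40 values of single receptors stayed within their counting intervals. For the rescalings this was fixed in advance, since they shifted every log2 ratio by 0.015 or -0.0076, far less than any interval reaches. The log2 ratios of Htr1f and Htr5a were 0.00 and 0.01 after the first rescaling, a shift of 0.015, and no direction is read from them. The median of -0.21 kept its direction under every alternative tried. For the rescalings and pseudocounts this was fixed in advance, since a pseudocount cannot change the sign of a ratio. A filter at 0.5 RPKM kept all 10 members and so was no test. With members of at least 1 RPKM, and with all serotonin receptor genes of the table, the median was -0.21 as well. The number of receptors past the fold threshold was 2 at 1.5-fold, 4 (with Htr1a and Htr1b) at a fold that exceeds equality by 25% and 1 (Htr7) at 2-fold. It was 3 after rescaling to an equal total, because Htr1b lies on the threshold. Intervals left out 0 in 4 receptors at the estimated depth. They left it out in 3 (without Htr1b) at 0.5 times that depth and in 6 (with Htr2a and Htr4) at 2 times. Over the depths tried, the calls of Htr1b, Htr2a and Htr4 depended on depth and those of Htr1a, Htr2c and Htr7 did not. Greater depths were not tried. The study gives larger read numbers, and the calls at its depth were not tested. The shares of all genes at these other folds and depths are not given here, so the counts there cannot be set against a background.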
